A study of Mus musculus with 18 samples.

Results

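The genes described here encode the conjugating enzymes of drug and hormone metabolism, namely the glutathione S-transferases of classes alpha (Gsta), mu (Gstm), pi (Gstp) and theta (Gstt), the UDP-glycosyltransferases (Ugt1, Ugt2 and Ugt3) and the sulfotransferases (Sult). They were taken from the expression table by the start of their symbol, which gave 56 of 28442 genes. Their levels were compared between 12 advanced tumors and 6 non-tumoral livers, all from Alb-R26Met mice. Both groups thus carried the same genotype, in which Cre under the albumin promoter removes a stop cassette in hepatocytes and switches on a mouse-human chimeric Met transgene at the Rosa26 locus. The mice were males of an F1 C57:129Sv background, and the livers came from animals in which no tumor had developed. Livers were taken at 52 to 71 weeks of age (median 56.5) and tumors at 49 to 72 weeks (median 65.0). In all there were 18 samples from 17 mice, because 1 animal gave both tumor 11 and tumor 12, and p-values treat each sample as independent. The sample names also carry a tag, E19 or E20, whose meaning is not given, and each tag marks 9 samples (2 livers and 7 tumors for E19, 4 livers and 5 tumors for E20).

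Conjugation makes reactive or lipid-soluble compounds water-soluble, so that they can leave the hepatocyte through bile or blood. Glutathione S-transferases couple electrophiles to glutathione, Ugt1 and Ugt2 enzymes transfer glucuronic acid in the endoplasmic reticulum, and sulfotransferases transfer sulfate in the cytosol. Many of these genes differ between male and female mouse livers, many are placed in 1 zone of the liver lobule, and several are known targets of the transcription factors Nrf2, aryl hydrocarbon receptor and CAR.

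Levels are given as TPM (transcript abundance per length, on a fixed total per sample) after scaling between samples, so that levels can be compared between genes. The deposited totals ranged from 835144 to 907513, the number of genes above 0 from 8718 to 13819, and the reads behind a value are not kept in TPM. One gene, Siglece, held 17.9% to 29.5% of the total in livers and 21.5% to 82.9% in tumors. Tumor 2 had the 82.9%, the fewest genes above 0 and a scaling factor of 0.190, so that 1 deposited TPM there became 5.25. It was the lowest tumor for 17 of the 41 conjugating enzymes tested, so many lowest tumor values below come from it. Met averaged 26.2 in livers and 122 in tumors, a log2 difference of 2.21 (adjusted p = 5.4e-08). Hepatocyte markers summed to 44620 to 58608 in livers and 43504 to 87696 in tumors, a sum made up mostly by Alb, while of the 10 markers 2 were higher (Apoa1 and Trf) and 2 lower (Asgr1 and Ass1), with a median log2 difference of -0.26. The cholangiocyte list ranged from 14.1 to 23.5 in livers and from 66.3 to 901 in tumors, with 2 of 3 tested markers of 7 higher. This range was mostly that of Spp1 (882 of the 901 in tumor 11), while Krt19, Krt7 and Epcam stayed under 2 TPM in every sample and Cftr was at 0. The endothelial list ranged from 22.2 to 69.7 in livers and from 23.1 to 72.6 in tumors other than tumor 2, which had 215 (3 of 7 higher), and the macrophage list from 34.7 to 86.2 and from 8.62 to 57.3 (2 of 6 tested lower). The neutrophil list reached at most 5.17 and the lymphocyte list 9.40, with Cxcr2 and Ms4a1 at 0 everywhere. The stellate list ranged from 50.2 to 76.3 in livers and from 36.1 to 144 in tumors, with 3 collagen genes higher and 3 markers lower (Dcn, Lrat and Des). The part of these cells in the results below was not tested, and in bulk tissue fewer cells of a type and less RNA per cell cannot be told apart.

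Conjugating enzymes were more often lower than higher in tumors. Of the 56 genes, 41 passed the filter on low values, and 20 of them were called (limma, Benjamini-Hochberg adjusted p under 0.05), 3 higher and 17 lower in tumors. Across the 11452 genes tested, 19.1% were called, 9.52% higher and 9.61% lower. The log2 difference was negative for 31 of the 41 genes with a median of -0.63. Over all genes tested, 57.4% were negative and the median was -0.08. The 3 genes called higher were Gsta13, Ugt1a5 and Sult4a1, the last of which was at 0 in every liver and passed the filter through tumors alone, so that its direction was fixed. All 20 called genes had the same sign when E19 or E20 samples were taken alone, as did 33 of the 41 tested. The 20 were called on these same samples pooled, which favors the same sign, so this is no replication. Only 4 passed the threshold within each tag, where 1419 and 533 genes passed in all. The 15 genes under the filter were Gsta5, Gstt4, Ugt1a10, Ugt2a1, Ugt2a2, Ugt2b37, Ugt2b38 and 8 sulfotransferases, and 6 of the 15 were at 0 in every sample.

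**Figure D1:**
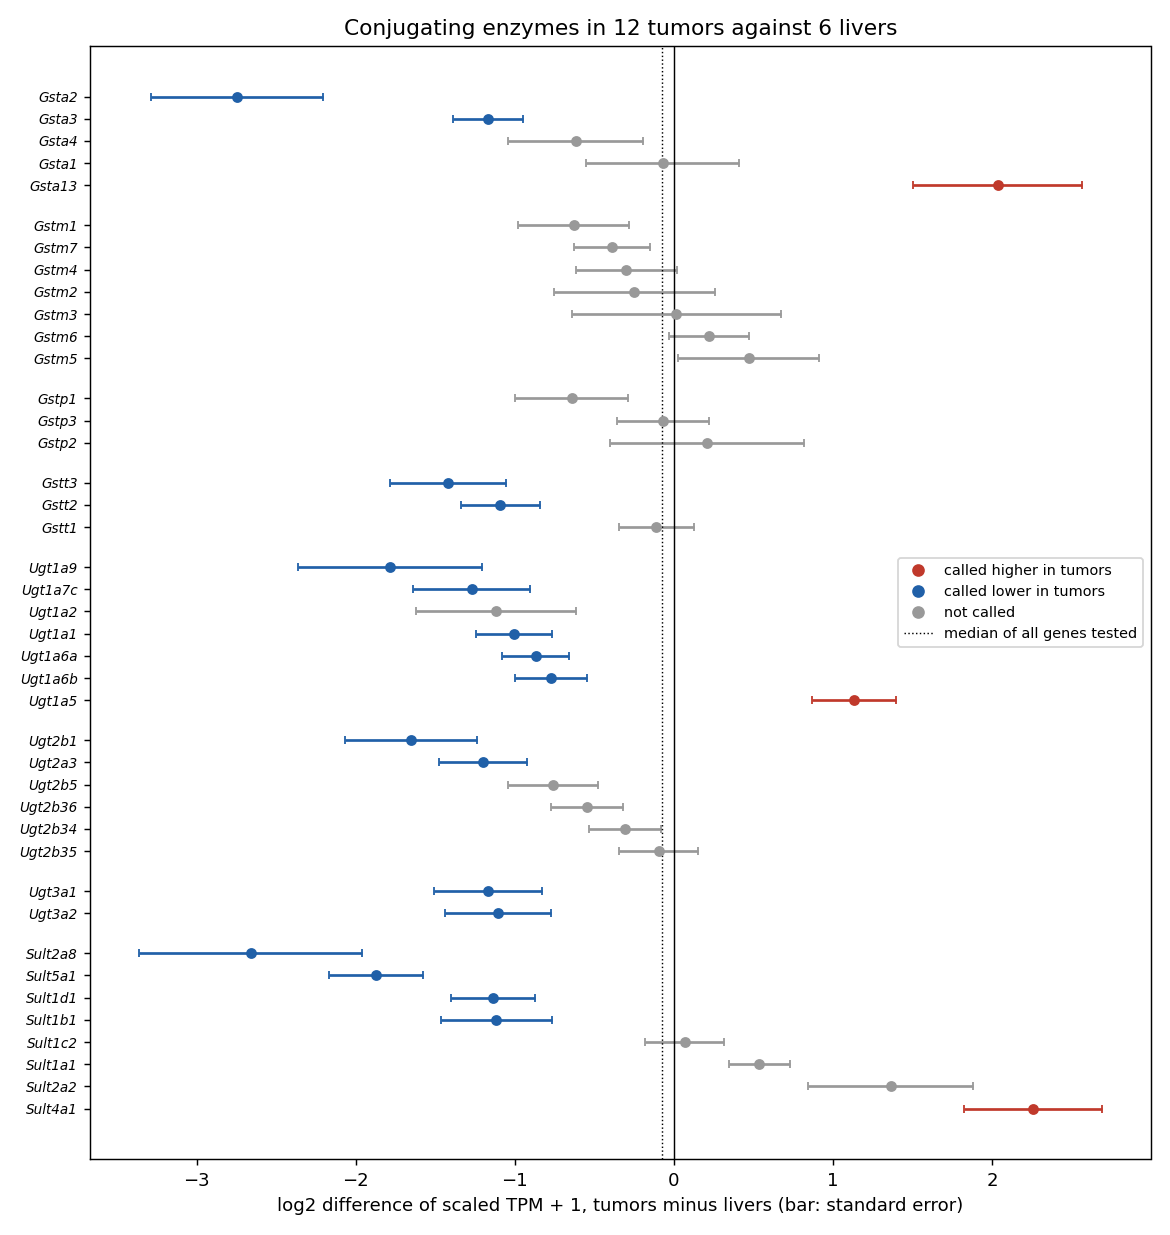
Log2 difference between 12 tumors and 6 livers for the 41 genes tested, grouped by family, with the standard error as a bar. Blue points mark the 17 genes called lower, red points the 3 called higher and gray points the 21 not called, and the dotted line is the median of all genes tested, -0.08.

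Separation between the groups was rarely complete. Only Sult5a1 was lower in every tumor than in every liver, a pattern seen in 1.07% of all genes tested, and no gene was higher in every tumor than in every liver (2.17% of all genes). Among samples left out singly, liver 1 changed this count most. Without it, 8 of the 41 genes were below every remaining liver in every tumor, namely Gsta2, Gsta3, Sult2a8, Sult5a1, Ugt1a9, Ugt2a3, Ugt2b1 and Ugt3a1, against 3.66% of all genes, and 0 were above every liver, against 3.46%. Genes below every liver numbered 4 without tumor 10 (1.36% of all genes) and 2 without liver 4 (1.21%), liver 5 (1.38%), tumor 2 (1.38%) or tumor 6 (1.11%). Gsta13 was above every liver without tumor 3 (2.22%) and Sult4a1 without tumor 2 (3.44%). Single tumors were below every liver for 7 (tumor 9) to 15 (tumor 11) of the 17 genes called lower. These genes were called on the same samples, so the counts describe single tumors and are no separate result. The 12 tumors also differed from each other. Over tumors, the SD of the log2 level had a median of 0.73 among the 41 genes and 0.48 among all genes tested. Over livers these medians were 0.56 and 0.35, so the larger spread of the conjugating enzymes was present in livers too. Of the 41 genes, 32 varied more among tumors than among livers, and the share of all genes that did so was not counted.

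**Figure D2:**
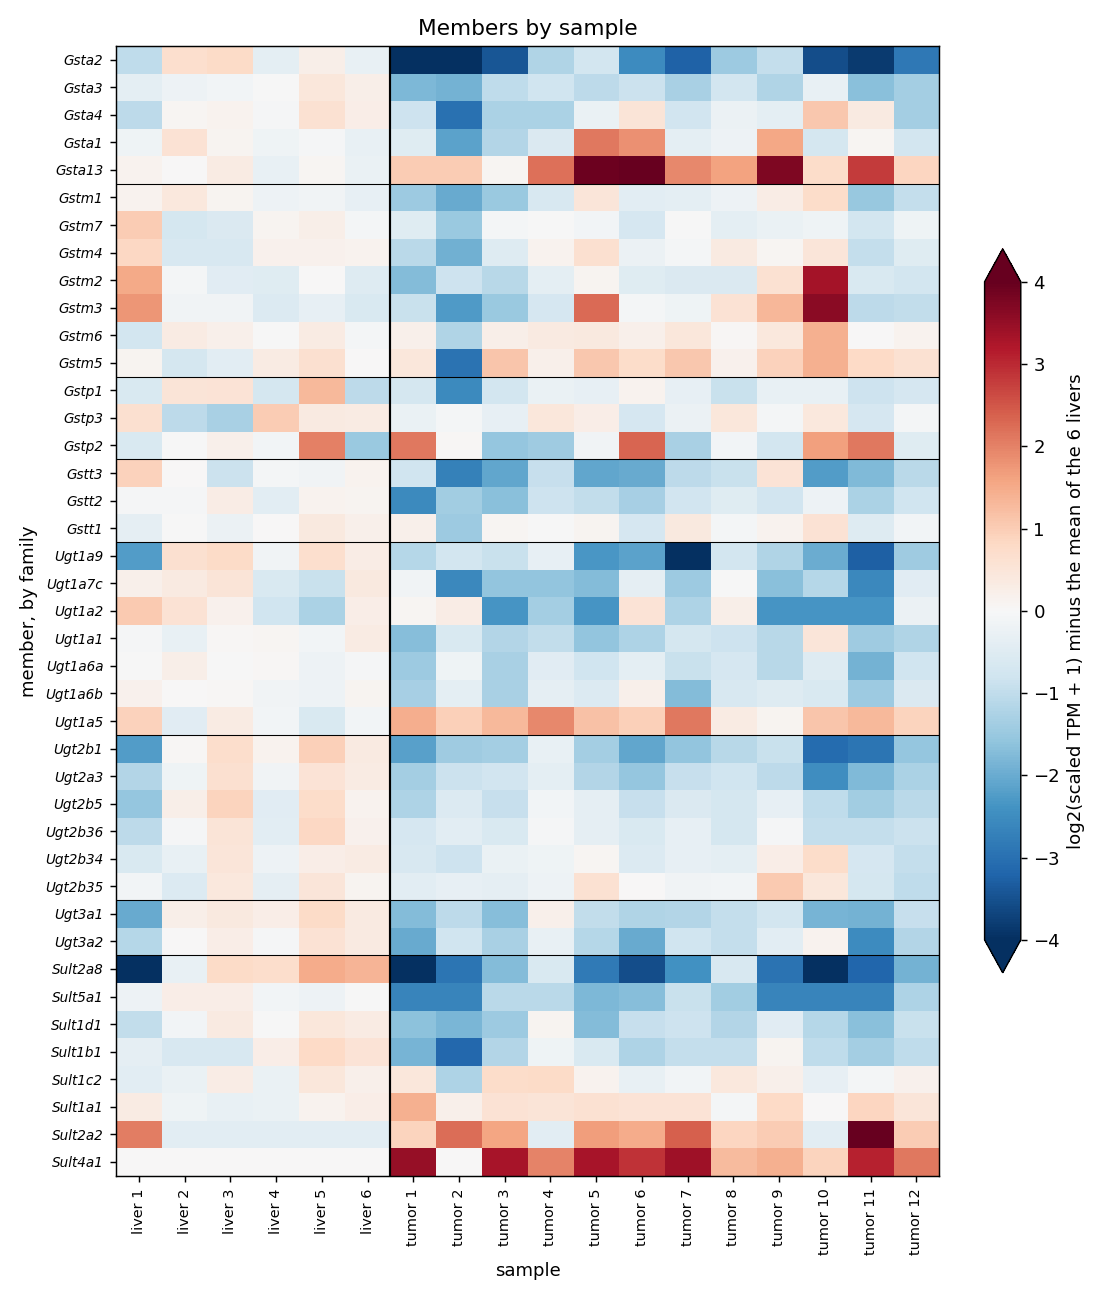
Log2 level of each gene in each sample minus the mean of the 6 livers, with livers left and tumors right of the line and families separated by horizontal lines. Gsta2, Sult2a8 and Sult5a1 are blue across the tumors, Gsta13, Ugt1a5 and Sult4a1 are red, and liver 1 shares the low Sult2a8, Ugt1a9 and Ugt2b1 of the tumors.

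Glutathione S-transferases held the largest share of these transcripts. Together the alpha, mu and pi classes summed to 2513 to 6298 TPM in livers and 803 to 4545 TPM in tumors, and 6 of the 12 tumors lay below every liver. In the median sample Gstp1 alone made up 33.2% of the summed level of the 56 genes in livers and 35.6% in tumors.

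Within the alpha class, 2 genes were called lower and 1 higher. Gsta3, the main alpha form of mouse liver, which detoxifies aflatoxin epoxide, lies on chromosome 1 (GRCm38.p6 chr1:21240565-21265575), apart from the other alpha genes. Its lowest, median and highest levels were 422, 531 and 761 in livers and 147, 251 and 449 in tumors. All tumors but tumor 10 were below every liver, and the log2 difference was -1.17 (SE 0.22, adjusted p = 0.000715), and the adjusted p was 0.0563 without scaling between samples. Gsta2 lies in the alpha cluster of chromosome 9 (chr9:78331018-78347192). Its lowest, median and highest levels were 14.8, 30.7 and 53.6 in livers and 0, 2.85 and 18.3 in tumors. The groups overlapped only through liver 1 and tumors 5 and 9, and the log2 difference was -2.75 (SE 0.54, adjusted p = 0.00106). Gsta4, which conjugates the lipid peroxidation product 4-hydroxynonenal, was not called (-0.62, SE 0.42, adjusted p = 0.348). It ranged from 22.9 to 75.2 in livers and from 5.25 to 104 in tumors, where the 5.25 was 1 deposited TPM in tumor 2.

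Gsta13, which RefSeq lists under an older symbol at chr9:78257129-78269166, moved the other way. Livers held 5.83, 7.62 and 9.41 TPM at the lowest, median and highest, and tumors 7.81, 27.7 and 187. Tumor 6 had the 187, tumor 5 had 126 and tumor 9 had 111, and 11 of the 12 tumors exceeded every liver, tumor 3 being the exception. The log2 difference was 2.03 (SE 0.53, adjusted p = 0.00939). Gsta1, its neighbor in the cluster, had 2.57 to 5.63 in livers and 0 to 18.3 in tumors, with its 3 highest values in the same tumors 5, 6 and 9, and was not called (-0.07, SE 0.48, adjusted p = 0.94). Srxn1, sulfiredoxin, a target of Nrf2, was also highest in tumors 5 and 6, at 71.6 and 79.4. Livers ranged from 6.86 to 36.2, where liver 1 held the 36.2 and the other livers at most 10.7. Tumor 9 had 35.7, below tumor 7 (40.2) and liver 1 and above every other liver. Among tumors, the Nrf2 targets Txnrd1, Gclc and Cbr3 had their highest values in tumors 5, 6 and 9, but Txnrd1 reached 196 in liver 1, above every tumor. Nqo1 and Hmox1 were highest in tumor 10, with tumors 5, 6 and 9 next among tumors. Liver 1 had 8.86 and 18.5 of them, above tumors 5, 6 and 9. Other targets of the list, such as Taldo1 and Osgin1, had another order. Apart from Srxn1, these genes were chosen after their values were seen. The part of Nrf2 targets in the result was not tested.

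Transcripts of these alpha genes are close copies, which limits how reads can be assigned. In GENCODE M21, only 4.38% of the 31-base words of Gsta13 and 7.14% of those of Gsta1 occur in no other gene, and 87.9% of the words of Gsta13 are also in Gsta1. Levels of single copies are therefore uncertain. Summed over Gsta1, Gsta13 and Gsta5, livers ranged from 8.57 to 13.2 and tumors from 8.79 to 202, with 11 of 12 tumors above every liver. With Gsta2 added, whose own words amount to 39.3%, livers ranged from 25.8 to 66.8 and tumors from 10.7 to 206, and 3 tumors were above and 5 below every liver. The promoters are close copies too. The 200 bases before the start of Gsta1 (chr9:78230469-78230668, plus strand) and of Gsta13 (chr9:78256929-78257128, plus strand) are shown because a gene that was called and one that was not share them. Shifted by 13 bases, 186 of 187 aligned bases are identical, and the capital marks the 1 that differs.
Gsta1: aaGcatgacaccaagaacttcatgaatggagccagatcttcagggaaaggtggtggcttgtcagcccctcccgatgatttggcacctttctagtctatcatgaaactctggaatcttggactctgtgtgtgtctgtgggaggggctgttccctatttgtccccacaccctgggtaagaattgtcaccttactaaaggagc
Gsta13: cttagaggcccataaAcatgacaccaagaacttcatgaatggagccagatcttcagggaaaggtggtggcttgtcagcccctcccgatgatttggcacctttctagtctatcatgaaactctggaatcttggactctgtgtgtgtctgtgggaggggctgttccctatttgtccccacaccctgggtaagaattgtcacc
The same stretch of Gsta5 matches that of Gsta13 at 194 of 198 bases, while Gsta5 itself was at 0 in every sample but tumor 5, where it had 0.795 TPM.

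None of the 7 mu genes, which lie together on chromosome 3 (chr3:107895854-108045179), and none of the 3 pi genes on chromosome 19 (chr19:4035411-4059605) was called. Gstm1, the most abundant mu form, had 781, 968 and 1321 TPM at the lowest, median and highest in livers and 242, 684 and 1626 in tumors. Although 8 tumors were below every liver, tumors 5 and 10 were above every liver, and the log2 difference of -0.63 (SE 0.35) gave an adjusted p of 0.231. Gstm5 had a log2 difference of 0.47 (adjusted p = 0.515) with all samples and of 0.78 (adjusted p = 0.00897) without tumor 2, where it was at 0. Gstp1, a form known to be higher in male than in female mouse liver, had 829, 1780.4 and 4211 in livers and 294, 1209 and 1876 in tumors, and only tumor 2 was below every liver (-0.64, SE 0.36, adjusted p = 0.230). Livers themselves spanned a wide range of Gstp1, with liver 5 highest and liver 6 lowest. Gstp2, which shares 54.8% of its 31-base words with Gstp1, had 127 in liver 5 and 10.3 to 35.7 in the other livers, and 98.2 to 160 in tumors 1, 6, 10 and 11. Summed, Gstp1 and Gstp2 ranged from 839 to 4338 in livers and from 326 to 2036 in tumors.

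Theta enzymes conjugate small halogenated compounds. Gstt2 and Gstt3 were called lower and Gstt1 was not, all 3 within chr10:75774117-75837419. Gstt2 had 32.1, 43.8 and 52.7 TPM at the lowest, median and highest in livers and 6.55, 22.6 and 37.6 in tumors, and every tumor but tumor 10 was below every liver (-1.09, SE 0.25, adjusted p = 0.00395). Gstt3 had 21.6, 39.1 and 76.8 in livers and 5.25, 14.7 and 58.7 in tumors, where tumor 9 held the 58.7 and 10 tumors were below every liver (-1.42, SE 0.36, adjusted p = 0.00856). Gstt1, the most abundant theta form, had 126 to 210.1 in livers and 57.8 to 240.1 in tumors (-0.11, SE 0.24, adjusted p = 0.803). Gstt4 was at 0 throughout.

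Called genes of the UDP-glycosyltransferase families were mostly lower. In the Ugt1 locus, alternative first exons are each spliced to a shared set of later exons, so that every form has its own promoter and its own substrate-binding part. The 8 forms of the table lie in chr1:88055411-88220002, and of the 7 tested 5 were called lower and 1 higher. Their summed level ranged from 309 to 418 TPM in livers and from 128 to 316 in tumors, with 11 of 12 tumors below every liver. Ugt1a1, the enzyme that conjugates bilirubin, had 104, 130.03 and 161 at the lowest, median and highest in livers and 39.3, 58.1 and 183 in tumors. Every tumor was below every liver except tumor 10, which had the 183, above every liver (-1.003, SE 0.24, adjusted p = 0.00514, and 0.0587 without scaling). Ugt1a6a and Ugt1a6b, which act on small phenols, had log2 differences of -0.87 and -0.77 (adjusted p = 0.0052 and 0.0203), and their sum was 98.4 to 126 in livers and 33.3 to 102 in tumors. Both lost the call without scaling (adjusted p = 0.0751 and 0.141), and Ugt1a6b also under rescaling without Siglece (0.0668).

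Ugt1a9 had 16.2, 112 and 135 TPM at the lowest, median and highest in livers and 1.18, 31.6 and 63.2 in tumors. Liver 1 held the 16.2 and the other livers at least 72.9, so that without liver 1 no tumor overlapped. The log2 difference was -1.78 (SE 0.58, adjusted p = 0.0332) with all samples and -2.23 (adjusted p = 0.00638) without liver 1. The call was lost, with adjusted p up to 0.0842, when liver 2, 3, 4, 5 or 6 or tumor 5 or 11 was left out. It was also lost with the tag as a covariate (0.0533), with a pseudocount of 0.1 (0.0541), under rescaling without Siglece (0.0504) and among livers and tumors 1 to 6 with a replicate block (0.0845). Ugt1a7c was low in both groups, at 2.21 to 7.52 in livers and 0 to 4.94 in tumors (-1.27, SE 0.37, adjusted p = 0.0175). Its adjusted p was 0.0507 without liver 3, 0.0505 under rescaling without Siglece and 0.0619 with a pseudocount of 0.1. Ugt1a10, under the filter, had 0.938 to 2.95 in livers and was at 0 in 9 tumors.

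Ugt1a5 was the 1 form that rose. Livers held 9.95, 14.6 and 30.3 TPM at the lowest, median and highest, and tumors 17.01, 35.8 and 70.9. Liver 1 held the 30.3, tumor 7 the 70.9, and 9 tumors exceeded every liver (1.13, SE 0.27, adjusted p = 0.00442). The adjusted p was 0.146 without scaling and 0.217 in E20 samples alone. The composition of the locus therefore differed between the groups. Ugt1a5 made up 2.76% to 9.81% of the summed level of the 8 forms in livers (median 3.96%) and 8.89% to 34.9% in tumors (median 18.7%), and 10 of 12 tumors were above every liver. Ugt1a9 made up 28.5% in the median liver and 16.7% in the median tumor, with 5.26% in liver 1 and 0.581% in tumor 7. Tumor 10 was the sample with the highest share of Ugt1a1, 57.8%. A share sums to 100% over the forms, so a fall of some forms raises the share of the others.

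**Figure D3:**
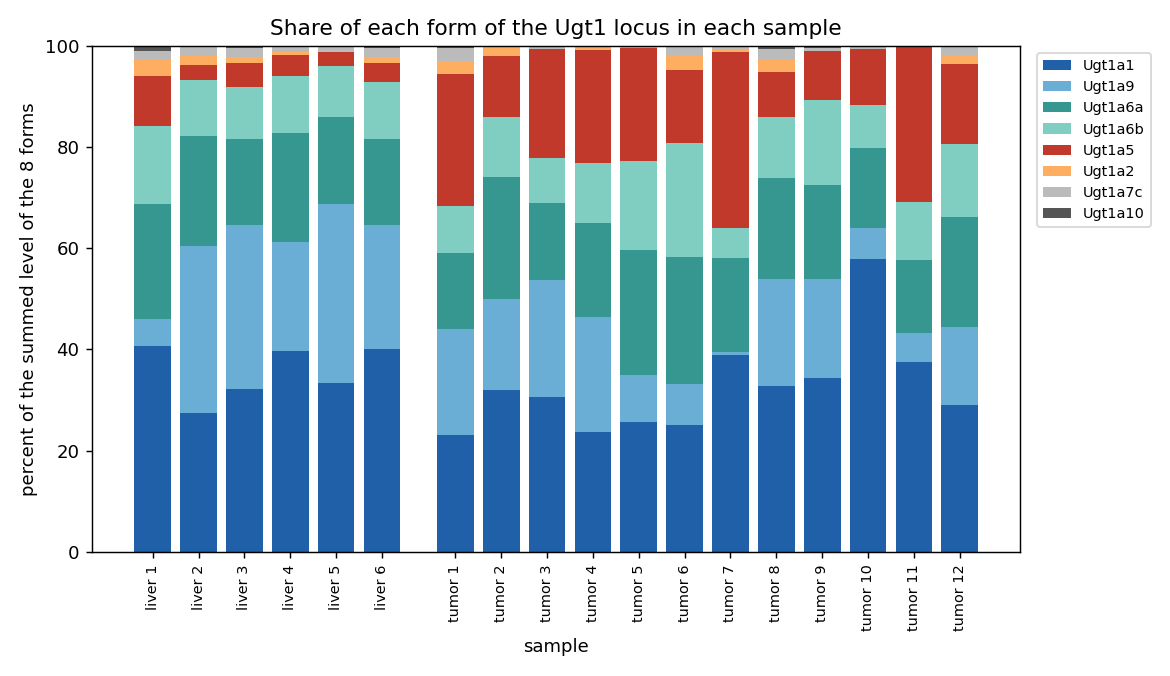
Share of each of the 8 forms in the summed level of the Ugt1 locus, in percent, for each of the 6 livers and 12 tumors. The red segment, Ugt1a5, is at most 9.81% of a liver and at least 8.89% of a tumor, and the light blue segment, Ugt1a9, is under 10% in liver 1 and in tumors 5, 6, 7, 10 and 11.

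The promoter of Ugt1a5 is shown because this form shares its later exons with the others and moved the other way. It is the 200 bases before the start on the plus strand (RefSeq, GRCm38.p6, chr1:88165812-88166011), and capitals mark the core of the xenobiotic response element, GCGTG.
Ugt1a5: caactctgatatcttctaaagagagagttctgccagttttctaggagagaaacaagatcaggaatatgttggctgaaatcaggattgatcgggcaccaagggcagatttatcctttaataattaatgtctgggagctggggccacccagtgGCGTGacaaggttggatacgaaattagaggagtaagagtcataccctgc
GCGTG stood in the same window of 16.3% of the 49 genes with a promoter and 27.3% of all 27025 genes, and the core of the antioxidant response element, TGACNNNGC, in 6.12% and 9.77%. The latter was found in Gsta3, Gstm5 and Gstm7. Both strands were searched, 1 match of each core overlapped in Gstm5, and a match is a run of letters and not evidence of binding.

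The Ugt1 forms overlap in their reads as well. Own 31-base words made up 18.7% for Ugt1a1, 32.2% for Ugt1a9 and 34.7% for Ugt1a5, so the split of the locus rests on reads from the first exons. In all, 13 of the 41 genes tested had under 50% own words, among them the 7 Ugt1 forms, Ugt2b5, Gstp2 and Sult2a2.

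The Ugt2 genes form a cluster on chromosome 5 with Sult1b1, Sult1d1 and Sult1e1 (chr5:86889770-87591611). All 8 tested genes of this cluster had negative log2 differences, and 4 of them were called lower. Among all genes tested, 57.4% were negative and 9.61% were called lower. Ugt2b1 had 14.8, 86.6 and 143 TPM at the lowest, median and highest in livers and 7.69, 25.2 and 59.2 in tumors. Liver 1 held the 14.8, every other liver exceeded every tumor, and the log2 difference was -1.65 (SE 0.42, adjusted p = 0.00754). Ugt2a3 had 25.1, 61.8 and 89.4 in livers and 9.40, 25.9 and 43.4 in tumors, again with liver 1 lowest among livers (-1.20, SE 0.28, adjusted p = 0.00389). Ugt2b5, the most abundant Ugt2 form, which acts on steroids, had 59.1, 200 and 325 in livers and 66.5, 100.5 and 163 in tumors. With liver 1 included it was not called (-0.76, SE 0.28, adjusted p = 0.0649), and without liver 1 it was (-1.07, adjusted p = 0.00206), as it was without tumor 4. Ugt2b36 behaved alike, with adjusted p = 0.0966 with all samples and 0.00970 without liver 1. Ugt2b34 and Ugt2b35 were not called (-0.31 and -0.10).

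Ugt3 enzymes transfer sugars other than glucuronic acid. Both genes, side by side at chr15:9279822-9370955, were called lower. Ugt3a2 had 50.2, 122 and 166 TPM at the lowest, median and highest in livers and 18.5, 53.3 and 122 in tumors, where tumor 10 was highest (-1.10, SE 0.33, adjusted p = 0.0229). Ugt3a1 had 2.22, 15.007 and 21.01 in livers and 2.46, 4.99 and 13.8 in tumors, with liver 1 lowest and tumor 4 highest (-1.17, SE 0.34, adjusted p = 0.0186). Ugt3a1 lost the call without liver 3 or 5 (adjusted p up to 0.0561), and Ugt3a2 without liver 3, 5 or 6 (up to 0.0612) or without scaling (0.0617). Without liver 1, Ugt3a1 was lower in every tumor than in every liver, with a log2 difference of -1.57.

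Among 8 tested of 16 sulfotransferases, 4 were called lower and 1 higher. The latter, Sult4a1, passed the filter through tumors alone, so that its direction was fixed. Sult2a8, a bile acid sulfotransferase of mouse liver, fell most. Its lowest, median and highest levels were 4.43, 144 and 244 TPM in livers and 1.46, 10.8 and 56.3 in tumors. Liver 1 held the 4.43 and the other livers at least 69.4, above every tumor. The log2 difference was -2.66 (SE 0.70, adjusted p = 0.0104), and -3.46 (adjusted p = 0.000171) without liver 1. Sult5a1 had 4.42, 5.002 and 6.58 in livers and 0, 0.854 and 2.36 in tumors, without overlap (-1.87, SE 0.30, adjusted p = 0.00014). Such levels are a few whole TPM in the deposited table. Sult1d1, which acts on amines such as dopamine, had 38.4, 85.9 and 105.0 in livers and 21.003, 33.7 and 82.9 in tumors, where tumor 4 was highest and liver 1 lowest among livers (-1.14, SE 0.27, adjusted p = 0.00446). Sult1b1, which acts on thyroid hormones, had 4.69 to 14.4 in livers and 0 to 8.51 in tumors (-1.12, SE 0.35, adjusted p = 0.0282). It lost the call without liver 4, 5 or 6 (adjusted p up to 0.0799), under rescaling without Siglece (0.0659) and with a pseudocount of 0.1 (0.113).

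Sult4a1, a sulfotransferase known from brain, was listed at 0 in all 6 livers and above 0 in 11 tumors. The tumors had 0, 4.86 and 10.2 TPM at the lowest, median and highest, with tumor 2 at 0 and tumor 1 highest (adjusted p = 0.000906). No fold change is given against 0, and since the gene passed the filter through tumors alone, it had to differ. Sult1a1, the main phenol sulfotransferase, had 111, 136 and 172 in livers and 131, 199.7 and 368 in tumors, and 9 tumors exceeded every liver. The log2 difference of 0.54 (SE 0.19) had an adjusted p of 0.0541, and the gene passed the threshold without liver 1 (0.60, adjusted p = 0.0379) or without tumor 2, 8 or 10. Sult2a2, a hydroxysteroid form with 25.5% own 31-base words, was at 0 in livers 2 to 6 and at 4.43 in liver 1, and reached 20.9 in tumor 11 (1.36, SE 0.52, adjusted p = 0.0702). It was above 0 in 1 liver and 10 tumors, so it reached the filter through tumors. It passed the threshold without tumor 4 (0.0346) or tumor 10 (0.0338). Both were at 0, so leaving either out removed a sample against a rise and gives no support for it. Without liver 1 Sult2a2 also passed, but all remaining livers were then at 0, so that the direction was fixed by the filter.

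**Figure D4:**
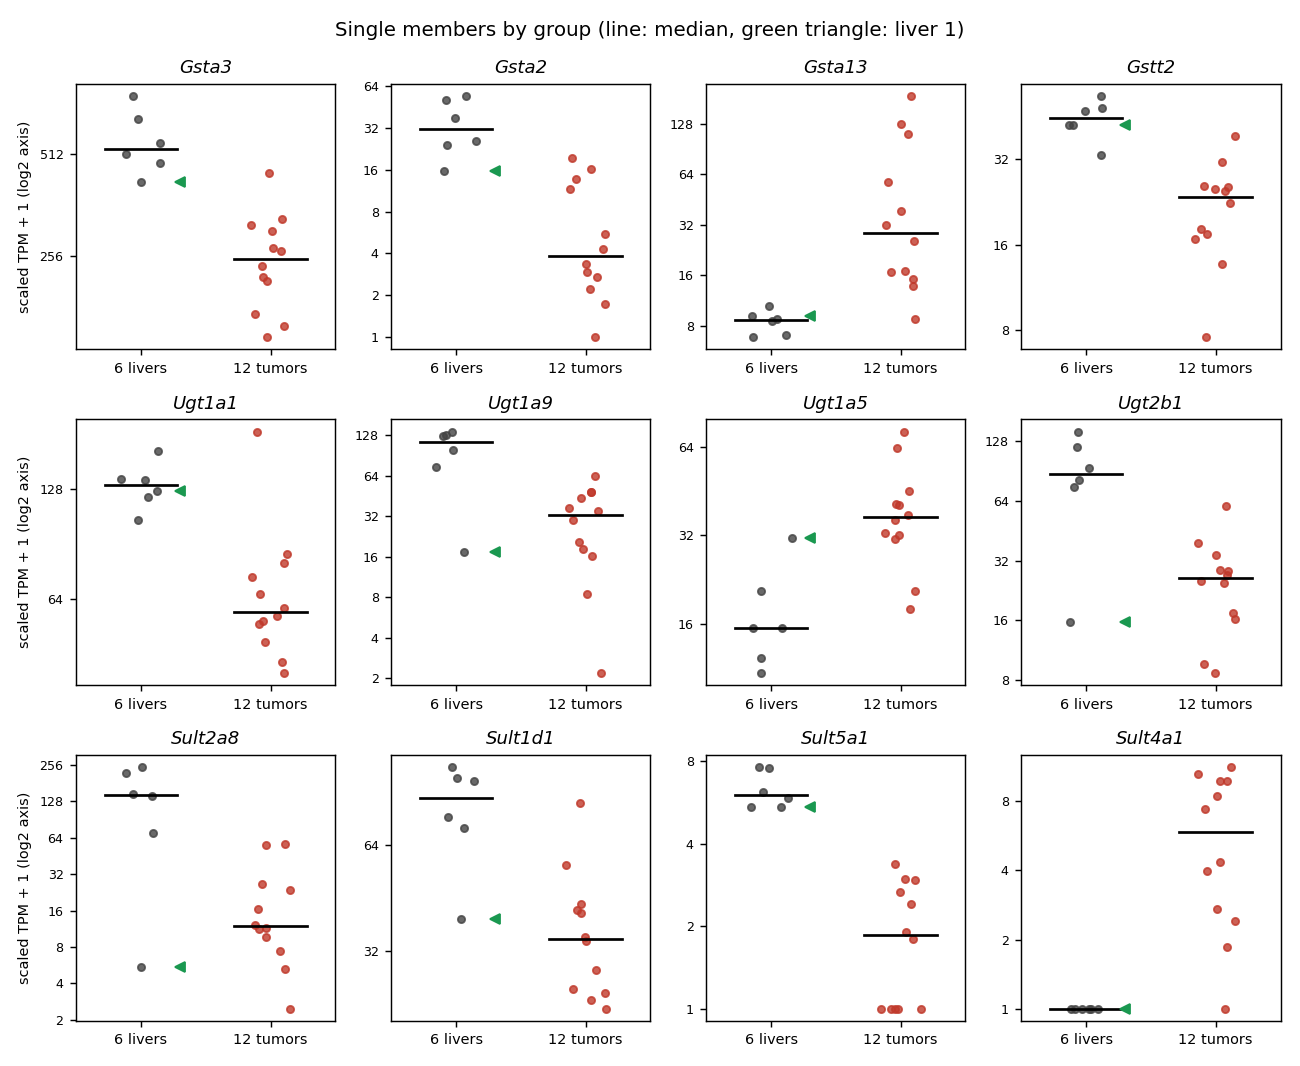
Level of 12 genes in each of the 6 livers and 12 tumors on a log2 axis of scaled TPM plus 1, with the group median as a line and liver 1 marked by a green triangle. Sult5a1 shows no overlap, Sult4a1 is at 0 TPM in all livers, and liver 1 sits among the tumors for Ugt1a9, Ugt2b1 and Sult2a8.

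Single samples stood apart in ways that the groups do not describe, and the genes named for this were chosen after their values were seen. Sult1e1, estrogen sulfotransferase, had 45.0 TPM in liver 1, 8.51 in tumor 9, 0.854 in tumor 10 and 0 in the other 15 samples. Liver 1 was also the highest liver for Gstm2 and Gstm3 (83.5 and 101, against at most 28.7 and 26.3 in the others) and the lowest of its group for 16 of the 41 genes tested. In 9 of the 17 genes called lower, liver 1 was below all other livers. In liver 1, several genes known to be higher in males were low. Cyp4a12a had 0.739 there and 114 to 255 in the other livers, while Slco1a1, Elovl3 and Hsd3b5 were at 0. Some genes known to be higher in females were present, with Cyp2b9 at 258, Cyp3a41a at 17.7 and Cux2 at 7.39. Cyp3a41a and Cux2 were at 0 in all other livers. Other genes of that list did not stand apart in liver 1. Cyp2a4 had 31.8 there, within the range of the other livers (25.4 to 66.9), Acot3 had 9.60, below liver 3 (10.3), and Hao2 was at 0. Xist was at 0 in all 18 samples and the Y-linked Ddx3y, Eif2s3y, Kdm5d and Uty were above 0 in all 18, liver 1 included. Over all samples, 7 of 14 tested genes of the male-biased list fell (Cyp7b1 -2.71, Slco1a1 -2.33), and 3 of 6 tested of the female-biased list rose (Cyp2a4 4.05, Cyp17a1 2.65) and 1 fell (Acot3 -1.77). Their part in the levels of the conjugating enzymes was not tested.

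Tumor 10 was the highest tumor for 12 of the 41 genes tested. It held 297 TPM of Gstm2 and 371 of Gstm3, where the other tumors reached 44.2 and 144, and also the highest Gstm1, Gsta3, Gsta4, Gstt1, Ugt1a1 and Ugt3a2. The same tumor had 5249 TPM of Glul, glutamine synthetase of the pericentral zone. No other tumor exceeded 251, and livers ranged from 193 to 418. Axin2, a feedback target of beta-catenin, was at 29.9 there and at most 2.82 in the other tumors, and Cyp2e1 was at 2124. The list of pericentral genes summed to 10703 in tumor 10, to at most 1577 in any other tumor and to 1877 to 4139 in livers, and 6 of its 13 tested genes were called lower (Oat -2.87, Cyp2e1 -2.83). Ugt2b1, Ugt2a3 and Sult2a8 did not share this pattern, since tumor 10 was the lowest tumor for the first 2 and had 4.27 of Sult2a8.

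**Figure D5:**
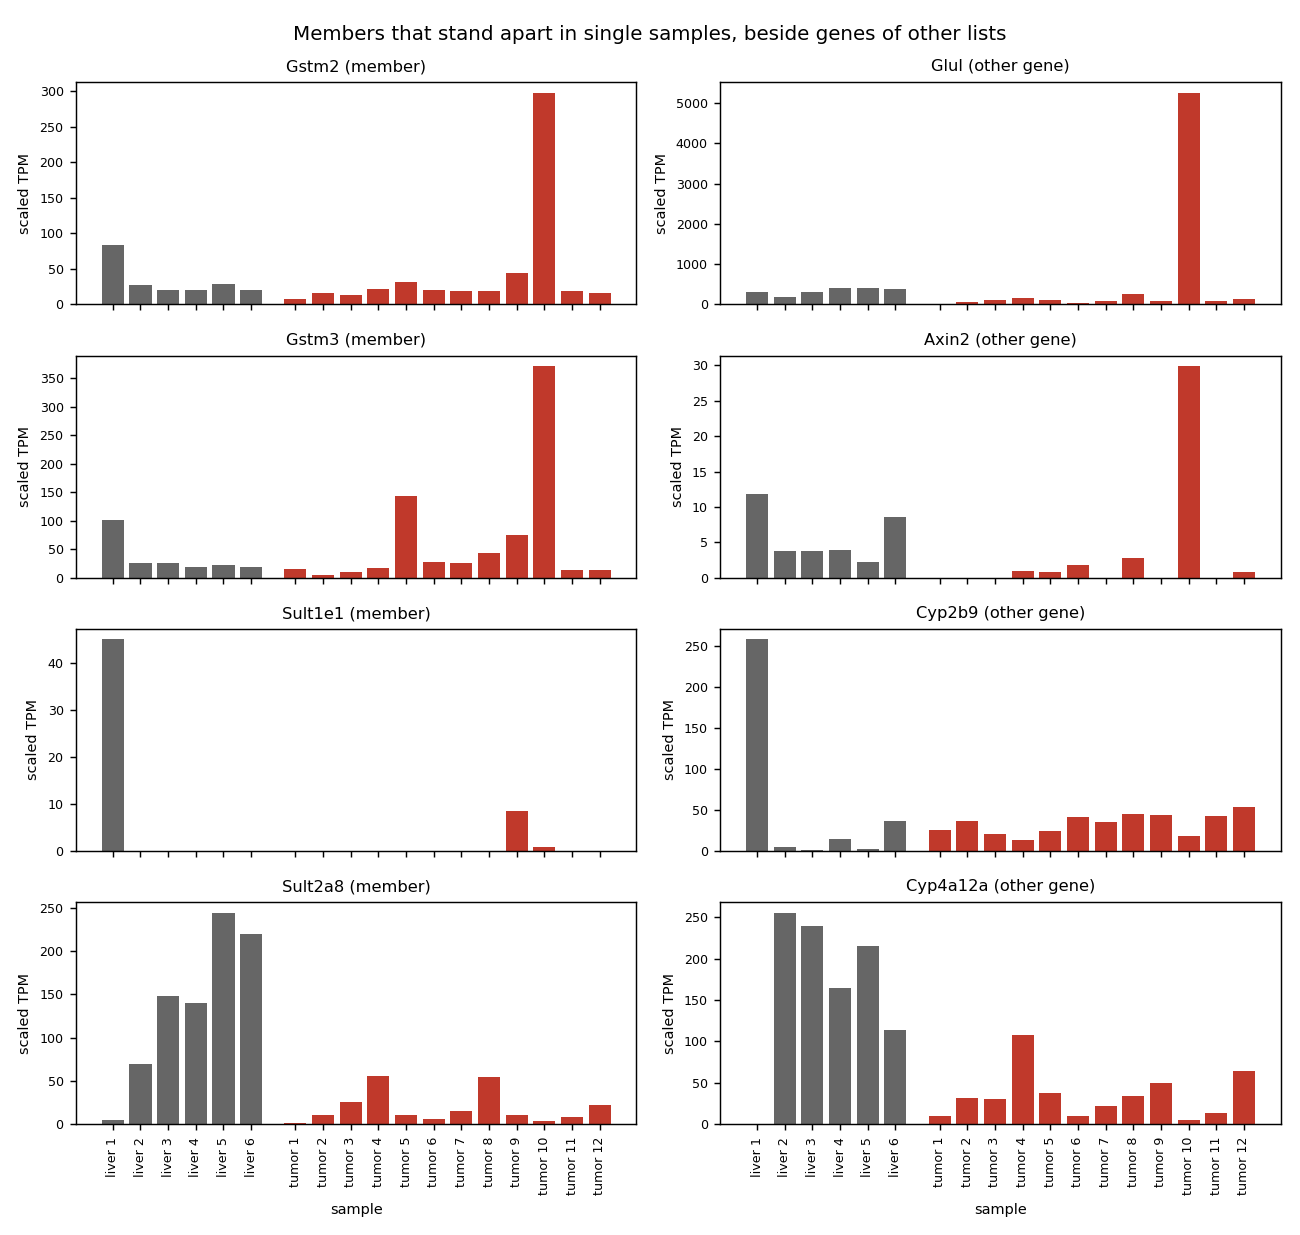
Level in scaled TPM in each of the 6 livers (gray) and 12 tumors (red) for Gstm2, Gstm3, Sult1e1 and Sult2a8, beside Glul, Axin2, Cyp2b9 and Cyp4a12a. Tumor 10 has the tallest bar for Gstm2, Gstm3, Glul and Axin2, and liver 1 has the tallest bar for Sult1e1 and Cyp2b9 and nearly none for Sult2a8 and Cyp4a12a.

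The tags were compared with the tumor-liver difference held constant. Ugt1a2 was higher in E20 than in E19 samples by 2.01 on the log2 scale (adjusted p = 6.95e-06) and Ugt1a7c by 1.02 (adjusted p = 0.0150), while Sult1b1 was lower by -0.88 (adjusted p = 0.0356). These 3 were the only conjugating enzymes called, where 20.5% of all genes were. Ugt1a2 had 0 to 1.18 in the 7 E19 tumors and 3.34 to 6.38 in the 5 E20 tumors, and 1.11 to 1.94 in the 2 E19 livers and 4.70 to 9.60 in the 4 E20 livers. Among tumors this separation rests on the scaling of tumor 2, an E20 sample whose 1 deposited TPM of Ugt1a2 equals that of the E19 tumors 4 and 7. Between tumors and livers Ugt1a2 was not called (-1.12, SE 0.50, adjusted p = 0.131). The tumor-liver difference itself differed between the tags for 0 conjugating enzymes and 0 of all genes by limma, with 0 and 326 at an unadjusted p under 0.05. What the tags stand for cannot be told apart from the samples that carry them.

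Genes around the supply of the conjugation reactions were read from lists, which also hold genes of breakdown. The list of glutathione supply also covers glutathione breakdown and the methionine cycle, and of its 14 tested genes 3 were higher and 6 lower. The latter were led by Gnmt (-1.97) and Ahcy (-1.77), enzymes of the methionine cycle, while Gss, glutathione synthetase, rose by 0.70, Ggct, which degrades gamma-glutamyl peptides, rose by 1.63, and Gclc, the catalytic subunit of the first step, was not called (0.30). Of the 6 tested glutathione transferases outside the families described, 3 fell, with Mgst1, the microsomal form, at -1.51 and the mitochondrial or peroxisomal Gstk1 at -1.43, and Mgst2 was at 0 in every sample. Of the 7 tested genes of sulfate donor supply and sulfate ester hydrolysis, 3 fell. Among them were Papss2, which makes the sulfate donor (-0.92), and Bpnt1, which degrades its product (-1.59). Of the 6 tested genes of UDP-glucuronate supply and glucuronide hydrolysis, only Uxs1 was called (0.69). Uxs1 uses UDP-glucuronate and does not supply it, and Ugdh, which makes the donor, had -0.14.

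Other enzymes and carriers of the same phase were called lower in part. Of 10 tested enzymes that methylate, acetylate or couple amino acids, 4 fell, the largest differences being those of Nnmt (-2.92), a methyltransferase, and Nat8 (-2.34), an acetyltransferase. Of 6 tested exporters of conjugates, Abcc3 (-1.10) and Abcc6 (-1.35) fell and Abcc2, the exporter into bile, was not called (-0.60, adjusted p = 0.106). Of 20 tested regulators, 5 fell, led by Nr1i3, which encodes CAR (-2.04), and Mafg (-1.40), and Mafk rose by 0.90, while Ahrr was at 0. Nr1i2, which encodes PXR, was among those that fell (-0.998). Of 17 tested Nrf2 targets outside the families, 4 rose (G6pdx by 1.80 and Srxn1 by 1.37 had the largest differences), Abcc3 fell, and the median was -0.01. Over all genes tested the median was -0.08.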

How the data were processed

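RNA-seq of poly-A RNA (paired end) was available for 18 samples. The authors aligned reads to GRCm38 (mm10), quantified transcripts with Salmon and normalized to TPM. The submitters' processing notes also name edgeR, without a role. The deposited table, called counts, holds whole numbers whose totals stay near each other, and was treated as a score, namely the authors' TPM rounded to whole numbers. Reads behind a value are not kept, so no counting interval is given, and count tests were not used. A value of 0 can be a rounded low value.

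Samples were grouped by their labels, and ages were taken from the study's sample list, where the mouse numbers of tumors 3 and 10 differ and the match was made by tag. Values were scaled with unweighted trimmed means of M values (30% and 5% trims). Genes that reached a scaled TPM of 1 in 6 or more samples were tested on log2(value + 1) with limma 3.58.1 (trend, R 4.3.3), with Benjamini-Hochberg adjustment over all 11452 genes and a threshold of 0.05. Log2 differences are on this scale and understate changes of low genes. The fit was tested on simulated data. Figures used matplotlib 3.10.9 in Python 3.11.15.

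Members and lists were chosen with earlier results of these data known. Members are given with sample values if they were among the called genes with the largest log2 differences of their family (up to 4, and up to 8 for Sult) or its most abundant. Of each list, up to 2 called genes with the largest differences and markers at 0 were named by the same kind of rule. Others (among them Gsta1, Gsta4, Gsta5, Gstm2, Gstm3, Gstm5, Gstp2, Ugt1a2, Ugt1a6a, Ugt1a6b, Ugt1a10, Ugt2b36, Sult1e1, Sult2a2, Gss, Gclc, Ggct, Ugdh, Abcc2 and Nr1i2) were chosen after their values were seen. Positions and promoters came from RefSeq (GRCm38.p6), 49 of 56 members having a promoter, and 31-base words from GENCODE M21 transcripts. Alternatives changed scaling, pseudocount, filter, covariates, samples and weights. Some genes and a motif are not reported here.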

Additional observations from a re-analysis of the deposited data

Results flagged for a closer look

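Livers were examined for a sample far from the others in 54 results, the levels of single conjugating enzymes and the sums of their families. The gap of the most extreme liver to its neighbor, as a share of the whole range, passed Dixon's 95% critical value for 8 of them, where chance flags about 1 in 20 independent groups. These results share the same 6 livers, so their number is no measure against chance. Liver 1 was the extreme sample in 6 of the 8. Its Gstm2 was 83.5 against 28.7 in the next liver (ratio 0.858), its Gstm3 101 against 26.3 (0.909), and its Ugt3a1 2.22 against 14.1 in the next lowest (0.631). Sult1e1 (45.0), Sult2a2 (4.43) and Sult2a1 (0.739) were above 0 in liver 1 alone among livers, so that each ratio was 1 by construction. Liver 5 stood apart for Gstp2, with 127 against 35.7 (0.782), and for Ugt2b38, with 3.32 against 0.941 (0.716). The last, like Sult2a1, rests on a few deposited TPM.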

How the results depend on the processing

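With all samples 20 conjugating enzymes (3 higher, 17 lower) and 2190 genes (1090 higher) were called. Without scaling, 1341 genes (670 higher) and 15 enzymes were called (Gsta3, Ugt1a1, Ugt1a5, Ugt1a6a, Ugt1a6b and Ugt3a2 lost, 1 gained among 42 tested), and the median of all genes moved from -0.08 to -0.18 while that of the enzymes was -0.82. With rescaling without Siglece, 1234 of 2010 called genes were higher, and 3 of 17 enzymes. Sample quality weights gave 4512 genes (2122 higher) and 26 enzymes (6 higher). In E19 samples only, 4 enzymes (2 lower) and 1419 genes were called and 16 enzymes did not overlap (25.8% of all genes, 2 livers). In E20 samples only, 4 enzymes (0 higher, 4 lower) and 533 genes (388 higher) were called and 9 did not overlap (10.3% of all genes). Without both liver 1 and tumor 2, a choice made after seeing the data, 25 enzymes (6 higher) and 3592 genes (1812 higher) were called and 10 did not overlap (9.84% of all genes), Sult4a1 included. The cause of these changes was not tested, except that single tags hold fewer samples.

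Leaving out 1 sample at a time, 16 to 24 enzymes were called (3 to 5 higher, 13 to 19 lower), 1710 to 3086 genes (906 to 1563 higher), 1 to 8 enzymes did not overlap, 2 to 4 differed between tags and 0 in the tumor-liver difference. The 5 higher were reached without liver 1, tumor 2 or tumor 10. Livers and tumors 1 to 6 gave 18 calls (1542 genes) with the replicate number as a block and 15 (1382 genes, 722 higher) without it. Same-numbered samples had correlations of -0.106 to 0.425 (mean 0.175, against -0.035 over other pairs). The livers came from mice without tumors, so same-numbered livers and tumors were different animals. No label ties the numbers, and they were not taken to pair the samples. No called enzyme reversed under any alternative. The mean of tumors 11 and 12 was not run for the tags, which differ between them. Depth is unknown, so levels of a few TPM are limited by rounding.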
